A study of Mus musculus with 56 samples.

Results

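Within single cells of cultured mouse pituitary, the wells led by *Pomc* transcript were set against the wells led by *Prl* transcript, across all genes other than the hormone genes. The wells were chosen by their hormone counts alone. Counts per 1000000 (CPM) were taken over the gene rows of each well, with the spike-in rows left out, and wells with at least 100000 gene counts were kept. A well was *Pomc*-led where its *Pomc* CPM was above that of *Prl*, *Gh*, *Tshb* and *Lhb* with *Fshb*, and *Prl*-led where *Prl* was above all of these and *Pomc* was under 2% of *Prl*. Of the 56 wells, 46 had the depth, and 25 of these were members: 5 *Pomc*-led wells (B2, D10, E8, F11 and H2) and 20 *Prl*-led wells. The others were 17 *Prl*-led wells with *Pomc* at 2% of *Prl* or more and 4 wells led by *Gh*.

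The labels describe the wells of both sides alike, as untreated primary pituitary cells. Whole pituitaries of female C57BL/6 mice aged 10 to 12 weeks, which were cycling at random, had been dissociated, with 5 pituitaries pooled per sample, and the cells had been grown for 4 days, trypsinized and kept in RNA-Best, a reagent that preserves RNA in intact cells. Cells were passed through a filter, captured one per chamber on the smallest Fluidigm C1 chip, and turned into full-length cDNA with SMART-Seq v4, with ERCC spike-ins (synthetic RNAs of known amount) in each chamber. The labels name no animal or culture for a cell, so all wells are 1 sample. Without separate samples to compare, the differences between the sides were not tested, and every value is a description of these wells. The protocol counts reads and not molecules. Poisson intervals of summed counts cover the counting of reads only, and not the spread between wells. Exact intervals of shares of wells take the wells as independent draws, although all came from 1 sample.

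Corticotropes and melanotropes are the pituitary cells that transcribe *Pomc*, the gene of a precursor protein that is cut into smaller hormones. Corticotropes answer corticotropin-releasing hormone (CRH) from the hypothalamus, cut the precursor to ACTH, and are held back by glucocorticoids from the adrenal gland, while melanotropes of the intermediate lobe cut it further, to alpha-MSH. Lactotropes make prolactin, descend from the lineage of the transcription factor Pit-1 and are held back by dopamine.

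The promoters of the hormone genes that chose the wells, and of *Crhbp*, the gene with all *Pomc*-led wells below the *Prl*-led wells of like depth, are shown for orientation. Each is the 250 bases upstream of the start in RefSeq (GRCm38.p6), 5′ to 3′ on the strand of the gene: chr12:3954695-3954944 (plus strand) for *Pomc*, chr13:27057320-27057569 (plus strand) for *Prl* and chr13:95444832-95445081 (minus strand) for *Crhbp*. Capitals mark CANNTG, the E-box motif that bHLH factors such as Neurod1 can bind, in the first, and TATNCAT or its reverse complement ATGNATA, a motif of the kind Pit-1 can bind, in the others.
Pomc: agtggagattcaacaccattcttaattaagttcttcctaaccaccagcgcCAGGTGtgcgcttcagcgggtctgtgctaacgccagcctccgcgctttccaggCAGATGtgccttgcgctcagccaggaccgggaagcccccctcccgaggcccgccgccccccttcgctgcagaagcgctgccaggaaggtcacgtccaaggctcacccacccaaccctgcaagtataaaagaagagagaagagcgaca
Prl: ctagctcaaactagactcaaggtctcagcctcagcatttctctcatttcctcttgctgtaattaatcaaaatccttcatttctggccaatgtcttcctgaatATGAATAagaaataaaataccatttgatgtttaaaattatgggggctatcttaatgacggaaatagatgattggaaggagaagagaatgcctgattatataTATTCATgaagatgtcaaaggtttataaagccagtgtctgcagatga
Crhbp: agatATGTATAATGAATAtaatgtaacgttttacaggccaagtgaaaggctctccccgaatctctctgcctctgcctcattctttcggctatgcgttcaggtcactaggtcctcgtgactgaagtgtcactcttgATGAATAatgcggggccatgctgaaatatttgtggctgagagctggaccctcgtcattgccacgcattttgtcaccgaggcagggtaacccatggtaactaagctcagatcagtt
Searched on both strands, the *Prl* window held 2 matches to TATNCAT, the *Crhbp* window 3, of which the first 2 abut in a single run of capitals, and the *Pomc* window 0. The *Pomc* window held 2 matches to CANNTG, the *Prl* window 2 and the *Crhbp* window 1. Over 32851 promoter windows of the same length, 7.92% held TATNCAT and 66.2% held CANNTG. A match of letters is a description and not a binding site.

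The 5 *Pomc*-led wells were deep and had little spike-in. Their gene counts were 5298575 in B2, 3030870 in D10, 1314330 in E8, 9479209 in F11 and 12563266 in H2, their ERCC share lay between 0.496% and 0.866% of all counts, and they had from 6720 to 12871 genes with at least 1 count. The *Prl*-led wells were mixed: gene counts ran from 199803 to 10664342 (median 2490781), the ERCC share from 0.144% to 66.1% (median 4.57%), and 7 of 20 had an ERCC share over 30%. A set of 9 *Prl*-led wells had an ERCC share under 1% and at least 1000000 gene counts, as all 5 *Pomc*-led wells did, and these are called the matched wells; the lists of genes below are counted in both comparisons, with all 20 and with the 9 matched wells. The matched wells also differed from the other *Prl*-led wells in hormones. Their medians were 1206 against 15065 CPM for *Gh*, 388 against 2926 for *Pomc*, 5.04 against 152 for *Cga* and 431844 against 273892 for *Prl*. A shift between the 2 comparisons can therefore not be assigned to depth and spike-in share alone.

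Several libraries stood apart. H2, the deepest well, held *Prl* at 40662 CPM and *Cga*, the shared alpha subunit of the glycoprotein hormones, at 41215 CPM beside *Pomc* at 59274 CPM, and *Pomc* was 146% of *Prl* there against 4088% to 11819% in the other 4. In F11 the 4 globin genes and *Alas2* took 14.7% of the gene counts (146749 CPM), while they summed to 0.189 to 58.8 CPM in the other 4 *Pomc*-led wells. H4, a *Prl*-led well outside the matched set, had endothelial markers at a sum of 8855 CPM and *Prl* at 14379 CPM. C10 and C11, also outside it, were nearly alike, with a median absolute log2 ratio of 0.17 over 950 genes against 0.96 for the next closest pair of *Prl*-led wells. At the limits of the rule, H7 was inside with *Pomc* at 1.90% of *Prl* and A3 outside with 2.00%, and for depth E7 was inside with 111195 gene counts and D12 outside with 96288.5. A11, with an ERCC share of 66.1%, was *Prl*-led only narrowly, with *Prl* at 204530 CPM and *Gh* at 202245 CPM, 98.9% of it.

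The hormone values that chose the sides are given as a description. *Pomc* was 298862 CPM in B2, 51676 in D10, 356901 in E8, 180795 in F11 and 59274 in H2, and between 27.0 and 9584 CPM in the *Prl*-led wells. *Prl* was 7311 CPM in B2, 1216 in D10, 3020 in E8, 2182 in F11 and 40662 in H2, against 14379 to 776624 CPM. *Prl* reads were thus present in every *Pomc*-led well and *Pomc* reads in every *Prl*-led well. *Gh* was 539 to 4618 CPM in the *Pomc*-led wells and 162 to 202245 CPM in the *Prl*-led wells. Hormone genes took 5.39% to 36.5% of the gene counts in the *Pomc*-led wells and 13.5% to 57.5% in the matched wells, so the CPM of all other genes was scaled by what the hormones left over.

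**Figure D1:**
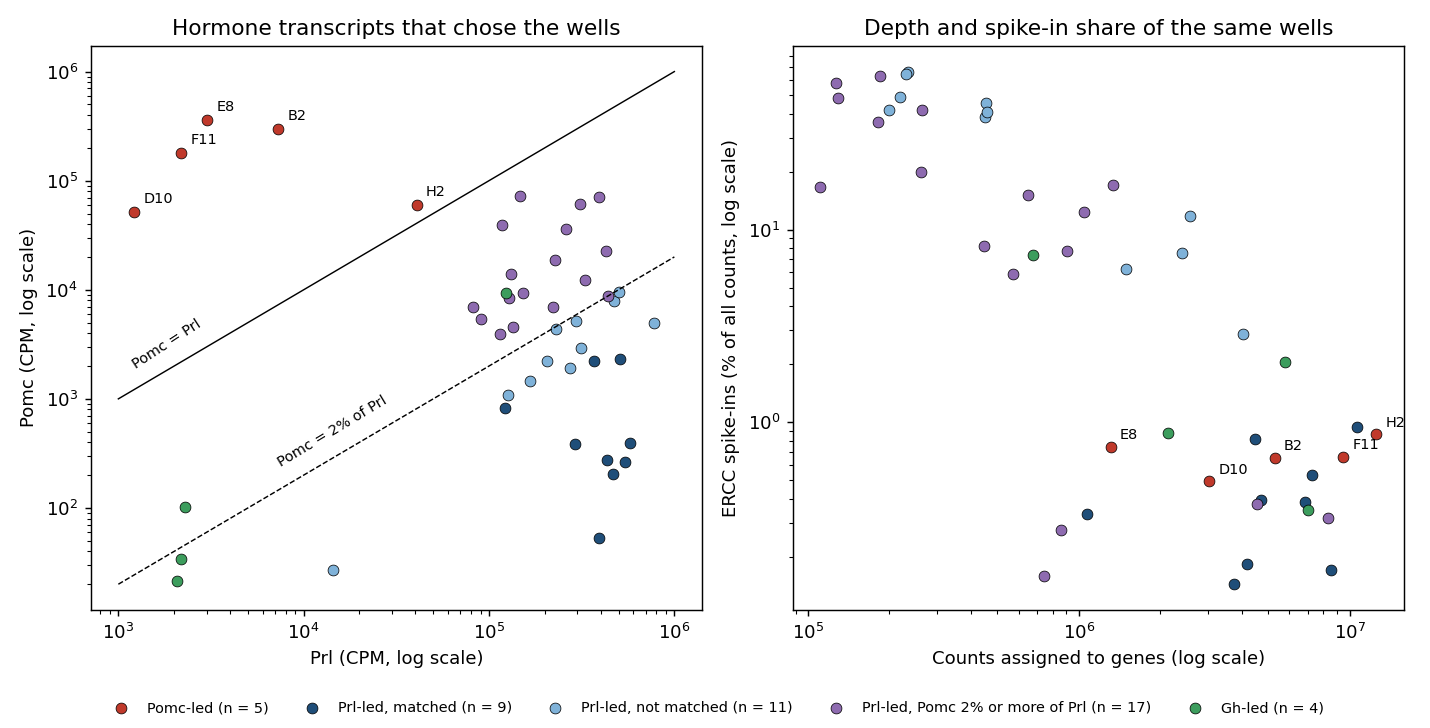
Left, *Pomc* against *Prl* in CPM (both axes logarithmic) for the 46 wells of at least 100000 gene counts, with lines where *Pomc* equals *Prl* and where it is 2% of it. Right, ERCC share of all counts against gene counts (both axes logarithmic) for the same wells. Each point is a well, coloured by side; the 5 *Pomc*-led wells sit between 0.496% and 0.866% ERCC, while 7 of the 20 *Prl*-led wells are over 30%.

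Both directions of difference were common across genes. Genes whose mean CPM, averaged over both sides, was at least 10 were compared by the difference of the sides' medians of log2(CPM + 1). Against all 20 *Prl*-led wells, 1585 of 7646 genes (20.7%) were at least 4-fold higher in the *Pomc*-led median and 650 (8.5%) at least 4-fold lower, with a median difference of 0.14 over all genes. Against the 9 matched wells the counts were 1108 (14.4%) and 1135 (14.7%) of 7711, with a median difference of 0. Of the 4-fold differences, the share that was higher in the *Pomc*-led wells was therefore 70.9% with all 20 wells and 49.4% with the matched ones, and with the hormone genes left out of the CPM total it was 59.4% and 42.3%.

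The distance between wells of 1 side overlapped the distance between wells of both sides. Of the genes compared, 44.7% to 53.3% differed at least 4-fold within the 10 pairs of *Pomc*-led wells (median 47.5%), 41.0% to 52.6% within the 45 pairs of a *Pomc*-led and a matched *Prl*-led well (median 45.1%) and 33.1% to 53.3% within the 36 pairs of matched *Prl*-led wells (median 41.3%). Of the 7646 genes, 2014 (26.3%) reached 1 CPM in all 5 *Pomc*-led wells. Genes whose wells did not overlap at all were few: 6 genes (0.0785%) had every *Pomc*-led well above all 20 *Prl*-led wells and 0 (0%) had every one below, and against the matched wells 17 genes (0.22%) were above and 1 gene (0.013%) below. With 1 *Pomc*-led well left out, the number above all 20 wells was 16 without B2, 15 without D10, 22 without E8, 14 without F11 and 12 without H2. Within plate columns 1 to 3 and 7 to 9, which held 3 *Pomc*-led and 11 *Prl*-led wells, 136 genes were above and 4 below, and within columns 4 to 6 and 10 to 12, with 2 and 9 wells, 384 and 116.

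The markers of corticotropes were present unevenly, and B2 was the 1 *Pomc*-led well with all of *Tbx19*, *Crhr1* and *Pcsk1* at 1 CPM or more. *Tbx19*, the T-box factor that drives *Pomc* transcription, was 1289 CPM in B2, 0 in D10, 14.5 in E8, 777 in F11 and 0.398 (5 counts) in H2. It was thus high in B2 and F11 and near or at 0 in D10 and H2, although H2 was the deepest well. Among the *Prl*-led wells it reached 1 CPM in 5 of 20 (25%, exact interval 8.66% to 49.1%) and 1 of 9 matched wells, with a highest value of 71.8 CPM in H12, against 3 of 5 *Pomc*-led wells (60%, 14.7% to 94.7%). These shares depend on depth. Besides H12, the *Prl*-led wells reached 1 CPM with 3 counts in A2, 1 in C11, 1 in H5 and 2 in H6. H2, with 5 counts, did not reach it. Summed over the wells of a side, *Tbx19* was 449 CPM (Poisson interval 442 to 456) in the *Pomc*-led and 5.28 CPM (4.67 to 5.94) in the matched wells. These sums rest on few wells. B2 and F11 held 6829 and 7370 of the 14223 *Pomc*-led counts, and H12 held 268 of the 272 matched counts. The difference of medians from the 20 wells was 3.95, and it was 2.22 without either B2 or F11 and 6.78 without either D10 or H2.

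*Crhr1*, the receptor for CRH, was 313 CPM in B2, 145 in D10, 0 in E8, 0 in F11 and 49.4 in H2. E8 and F11 had no count at depths where 3 counts would be 2.28 and 0.316 CPM. In the *Prl*-led wells the median was 0 and the highest value 47.1 CPM, in H3, so the 3 *Pomc*-led wells with reads were above all of them and the 2 without were not. *Neurod1*, a bHLH factor of corticotropes, split the wells in another way, with 0 CPM in B2, 34.6 in D10, 0 in E8, 77.1 in F11 and 21.3 in H2, against at most 4.35 CPM in the 20 *Prl*-led wells. *Avpr1b*, the vasopressin receptor of corticotropes, had no count in any well of either side. Of the 3 corticotrope markers other than *Pomc*, all 3 were at least 4-fold higher in the median (20.7% of all genes were), and of the 8 further corticotrope genes 4 passed the filter on low values, 1 of them higher (*Neurod1*) and 1 lower (*Crhbp*; 8.5% of all genes were). Against the matched wells the 3 markers were higher as well (14.4% of all genes), and of the same 4 further genes *Neurod1* was higher and *Crhbp* and *Il6st*, a subunit of the receptors of the IL-6 family, were lower (14.7% of all genes). The median of the further genes was -0.78 and -1.40. *Tbx19*, *Crhr1* and *Neurod1* had medians of 0 in the *Prl*-led and in the matched wells. They passed the filter chiefly through the *Pomc*-led wells where they were high, so their being counted as higher was partly set by the filter.

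Genes known from melanotropes were read in E8. *Pax7*, the factor that specifies melanotropes, was 25.1 CPM in E8 (33 counts) and 0 in the other 4 *Pomc*-led wells, and reached 1 CPM in 0 of 20 *Prl*-led wells, which allows a share of up to 16.8% by the exact interval. *Pcsk2*, the convertase that cuts ACTH further, was 33.2 CPM in B2, 44.9 in D10, 1568 in E8, 283 in F11 and 276 in H2, against a median of 7.62 CPM (0 to 49.2) in the *Prl*-led wells. E8 was highest, yet F11 and H2 also lay above every *Prl*-led well, while B2 and D10 fell within the range of the *Prl*-led wells, 2 of which exceeded B2. E8 also had no *Crhr1*, no *Nr3c1* and *Tbx19* at 14.5 CPM.

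**Figure D2:**
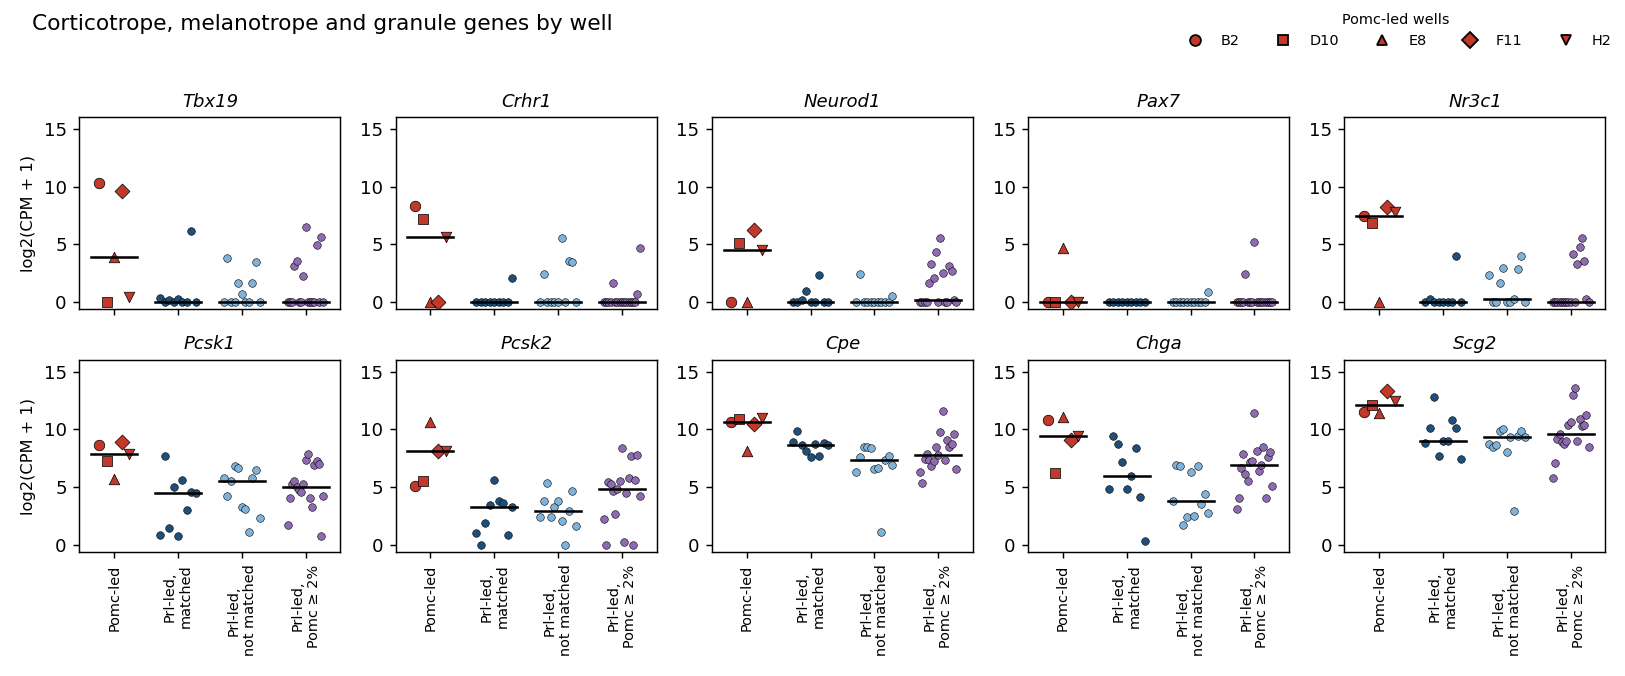
Each panel plots log2(CPM + 1) of 1 gene in the *Pomc*-led wells (symbols name the well), the 9 matched and 11 other *Prl*-led wells and the 17 *Prl*-led wells with *Pomc* at 2% of *Prl* or more; bars are medians. *Tbx19*, *Crhr1*, *Neurod1* and *Pax7* are at 0 in some *Pomc*-led wells, whereas *Pcsk1*, *Pcsk2*, *Cpe*, *Chga* and *Scg2* are above 0 in all 5.

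Of the 7 genes of prohormone processing that passed the filter, all but *Pcsk6* reached 1 CPM in all 5 *Pomc*-led wells. *Pcsk6* reached it in none of the 5, with at most 0.755 CPM. Among those that did not pass, *Pcsk5* had no count in any of the 5, and *Cpd*, *Qpct* and *Pcsk7* had none in at least 1. *Pcsk1*, the convertase that makes ACTH, was 397 CPM in B2, 153 in D10, 51.7 in E8, 473 in F11 and 235 in H2. Reads were present in all 5 wells, with the lowest in E8, and 6 of the 20 *Prl*-led wells (median 22.2 CPM, 0.720 to 202) lay above E8. The summed level was 318 CPM (Poisson interval 312 to 324) in the *Pomc*-led wells and 34.5 CPM (32.9 to 36.1) in the matched wells, and the difference of medians was 3.35 against 20 and 3.42 against 9 wells.

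*Cpe*, the carboxypeptidase that trims the cut ends, was 1571 CPM in B2, 1917 in D10, 276 in E8, 1420 in F11 and 2045 in H2, against a median of 242 CPM (1.24 to 910) in the *Prl*-led wells. The 4 wells other than E8 lay above all 20. *Pam*, which amidates peptides such as alpha-MSH, was 144 to 647 CPM in the *Pomc*-led wells against a median of 84.6 CPM, with 4 *Prl*-led wells above the lowest *Pomc*-led one. *Pcsk1n*, an inhibitor of Pcsk1, was 19.8 to 124 CPM against a median of 4.52 CPM, but reached 314 CPM in a *Prl*-led well. Of the 12 genes of prohormone processing, 7 passed the filter, and 4 of these were at least 4-fold higher (*Pcsk1*, *Pcsk2*, *Cpe* and *Pcsk1n*) and 1 lower (*Pcsk6*, median 0.239 against 8.69 CPM), where 20.7% of all genes were higher and 8.5% lower. The median of the list was 2.71 against 20 and 1.97 against 9 wells. Against the 9, 3 of 7 were higher and 1 lower (14.4% and 14.7% of all genes), since *Cpe* fell just short of 4-fold with 1.97.

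The granins, acidic proteins packed with hormones in dense-core granules, went different ways. *Chga* was 1787 CPM in B2, 74.6 in D10, 2124 in E8, 554 in F11 and 683 in H2, against a median of 27.7 CPM (0.281 to 670) in the *Prl*-led wells, and *Scg2* was 2855, 4415, 2775, 10478 and 5811 CPM in the same order against 576 CPM (6.45 to 6990). For *Chga* the well D10 was low, and both D10 and F11 lay within the range of the *Prl*-led wells. For *Scg2* 1 *Prl*-led well, C1, was above the lowest *Pomc*-led well. *Chgb* had the opposite sign, with a *Pomc*-led median of 432 CPM (27.7 to 2175) against 1076 CPM (13.1 to 9765), a difference of -1.31, and *Scg5*, the 7B2 protein that helps Pcsk2 mature, had a difference of 0.31. Of the 7 granins, 3 (*Chga*, *Scg2* and *Pcsk1n*) were at least 4-fold higher and 0 lower in both comparisons, beside 20.7% higher and 8.5% lower of all genes against 20 wells and 14.4% and 14.7% against the matched wells. The median of the list was 1.41 against 20 wells, 0.75 against the matched wells and 0.35 without H2.

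In the machinery of regulated exocytosis the 2 genes furthest apart were *Rab3b* and *Syt1*. *Rab3b*, a small GTPase on secretory vesicles, was 1788 CPM in B2, 288 in D10, 271 in E8, 2550 in F11 and 416 in H2, against a median of 1.61 CPM in the *Prl*-led wells, and only G7 of the 20, with 282 CPM, was above the lowest *Pomc*-led well. *Syt1*, the calcium sensor of fast release, was 242 CPM in B2, 575 in D10, 81.4 in E8, 44.3 in F11 and 518 in H2. It lay above all 9 matched wells (at most 38.9 CPM) and was exceeded by 1 of 20 *Prl*-led wells, H6 with 70.1 CPM against 44.3 CPM in F11. *Rims3*, a protein of release sites that was in none of the lists, was 0.755 CPM (4 counts) in B2, 535 in D10, 163 in E8, 142 in F11 and 19.6 in H2, and had no count in any of the 9 matched wells.

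Other parts of that machinery overlapped. *Snap25*, a SNARE protein, had a *Pomc*-led median of 357 CPM (89.2 to 608) against 116 CPM (1.74 to 1121), and *Vamp2*, its vesicle partner, 97.0 CPM (67.5 to 174) against 30.2 CPM (0 to 172). *Syt7* was lower, with a median of 0.330 CPM against 8.94 CPM. Of the 18 exocytosis genes, 12 passed the filter against 20 wells, with 3 higher (*Rab3b*, *Syt1* and *Cadps2*) and 1 lower (20.7% and 8.5% of all genes), and 14 passed against the matched wells, with 3 higher and 3 lower (*Syt7*, *Rab3d* and *Cplx2*; 14.4% and 14.7% of all genes). The shares against 20 wells were thus near those of all genes. The list had a median difference of 1.44 and 0.77.

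The glucocorticoid receptor gene *Nr3c1* was 171 CPM in B2, 113 in D10, 0 in E8, 296 in F11 and 228 in H2. In the 20 *Prl*-led wells the median was 0 and the highest value 15.5 CPM, so the 4 wells with reads stood above all of them and E8 stood with them. Of the 11 genes of glucocorticoid feedback, 5 passed the filter against 20 wells, with *Nr3c1* higher and *Per1* and *Dusp1*, both targets of the receptor, lower (20.7% and 8.5% of all genes). *Nr3c1*, whose median was 0 in the matched wells too, passed the filter chiefly through the *Pomc*-led wells where it was high. Its being counted as higher was therefore partly set by the filter in both comparisons. Against the matched wells 6 passed, with *Nr3c1* higher and *Dusp1* and *Sgk1*, a kinase induced by the receptor, lower (14.4% and 14.7% of all genes). There *Per1* had a difference of -0.38, against -2.34 with 20 wells, and *Sgk1* one of -3.93, against 0.28. The median of the list was 0.28 and -0.22. The mineralocorticoid receptor *Nr3c2* and the feedback gene *Fkbp5* did not pass it in either comparison, with *Pomc*-led medians of 0 and 0.660 CPM.

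Downstream of the CRH receptor, *Prkar1a*, a regulatory subunit of protein kinase A, was 2684 CPM in B2, 673 in D10, 918 in E8, 761 in F11 and 947 in H2, against a median of 205 CPM (2.23 to 890) in the *Prl*-led wells. Of the 20 *Prl*-led wells, 3 were above D10. *Gnas*, the stimulatory G protein, had a *Pomc*-led median of 73.8 CPM (11.9 to 252) against 17.3 CPM (0 to 304). Of the 16 genes of CRH and cAMP signalling, 12 passed the filter; *Crhr1*, *Gnas* and *Prkar1a* were at least 4-fold higher and *Crhbp* lower against 20 wells (20.7% and 8.5% of all genes), while against the matched wells *Crhr1* was higher and *Crhbp*, *Adcy6* and *Prkaca* lower (14.4% and 14.7%). The shares against 20 wells were near those of all genes, and with the hormone genes out of the CPM total *Gnas* and *Prkar1a* were under 4-fold, which left 1 of 13 higher. The median of the list was 0.20 in both comparisons, beside 0.14 and 0 for all genes.

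The 6 genes without overlap against all 20 *Prl*-led wells were *Gprasp1*, *Inpp5k*, *Svip*, *Peg3*, *Adk* and *Ppp6c*. *Peg3*, an imprinted zinc finger gene expressed from the paternal copy, was 688 CPM in B2, 896 in D10, 873 in E8, 1712 in F11 and 457 in H2, against a median of 48.5 CPM and a highest *Prl*-led value of 446 CPM in B11. The sides were close at their edge, where H2 lay just above B11.
*Gprasp1*, which sorts G protein-coupled receptors after their uptake, was 247, 276, 44.1, 210 and 169 CPM in B2, D10, E8, F11 and H2, against a median of 0.814 CPM and at most 35.3 CPM. *Inpp5k*, an inositol phosphatase, was 179, 101, 368, 308 and 102 CPM in the same order, against 1.07 CPM and at most 63.6 CPM. *Svip*, an inhibitor of degradation at the endoplasmic reticulum, was 85.1, 130, 126, 54.7 and 14.7 CPM, against 0 and at most 8.86 CPM. E8 was lowest for the first of these and H2 for the last.
*Adk*, adenosine kinase, was 97.3 to 202 CPM against at most 66.3 CPM, and *Ppp6c*, the catalytic subunit of protein phosphatase 6, was 63.0 to 201 CPM against at most 28.2 CPM. None of the 6 was in the gene lists. Their differences of medians were 3.85 to 6.86 against 20 wells, and stayed at least 4-fold in all 26 other settings tried. Because the genes were picked for lacking overlap in wells that most of these settings reuse, this was largely set by the choice.

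Outside the 25 members the separation of these genes did not hold. Among the 17 *Prl*-led wells with more *Pomc*, *Inpp5k* was 419 CPM in E9 and *Ppp6c* 1524 CPM in E7, and in the *Gh*-led well F4 *Gprasp1* was 484 CPM and *Peg3* 589 CPM. With those 17 wells on the *Prl*-led side, 0 genes had no overlap. Against the 9 matched wells, 11 further genes were without overlap and higher, among them *Syt1*, *Rims3*, *Nrbp1*, *Cst6*, *Slc24a2*, a sodium, potassium and calcium exchanger, *Atp6ap2*, an accessory subunit of the proton pump of granules and lysosomes, and *Gbp6* and *Rtp4*, both known as interferon-induced. *Rtp4* was 380 CPM in B2, 274 in D10, 361 in E8, 387 in F11 and 268 in H2, against at most 174 CPM in the matched wells, but 1683 CPM in H4. *Atp6ap2* was 495 to 972 CPM against 72.1 to 435 CPM.

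**Figure D3:**
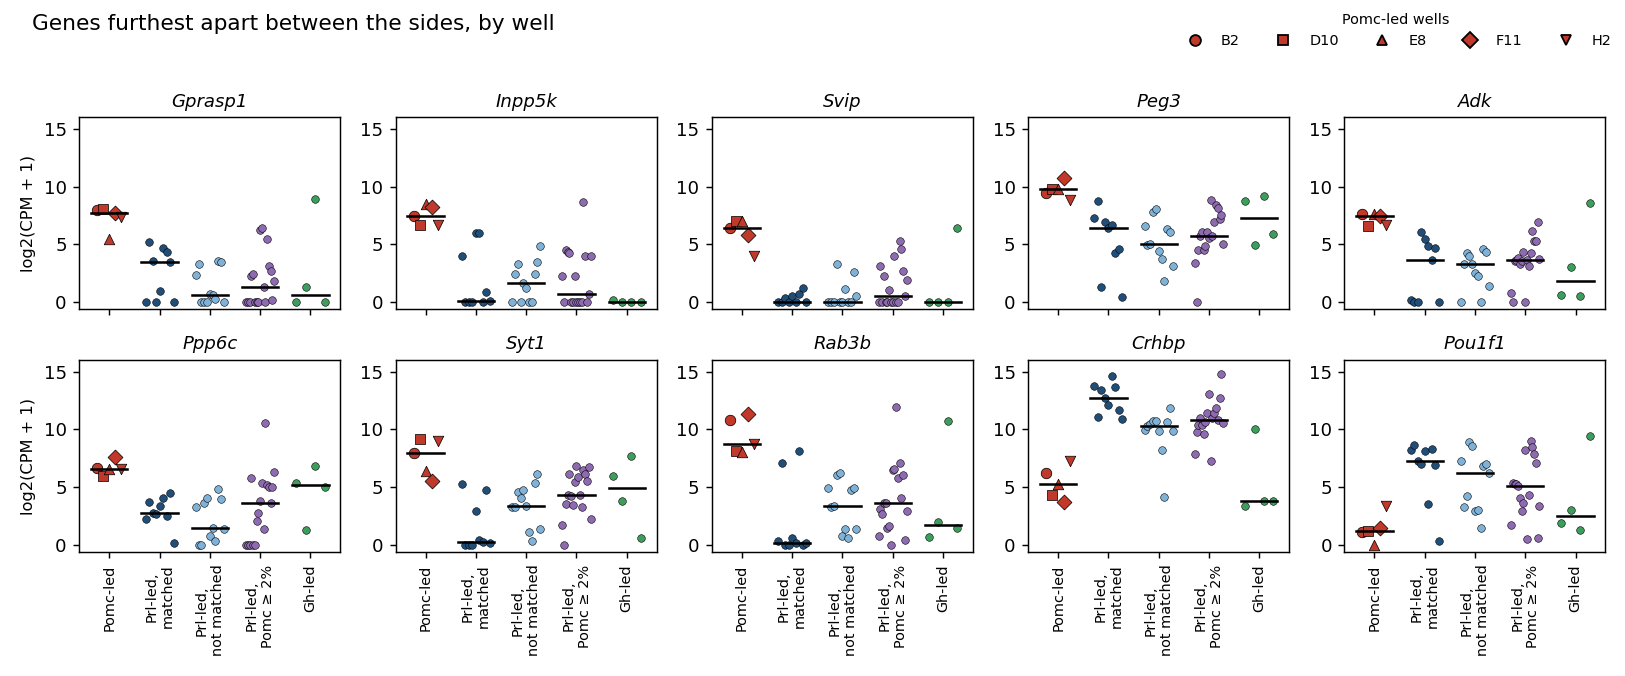
Each panel plots log2(CPM + 1) of 1 gene by well in the *Pomc*-led wells (symbols name the well), the matched and other *Prl*-led wells, the *Prl*-led wells with *Pomc* at 2% of *Prl* or more, and the *Gh*-led wells; bars are medians. The first 6 genes have every *Pomc*-led well above the 20 *Prl*-led wells, and *Crhbp* has every one below the 9 matched wells, with 3 of 4 *Gh*-led wells at the same low level.

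Among the remaining genes with the largest differences upward, single wells set the spread. *Bcl2l1*, which codes for the survival protein Bcl-xL, was 316 CPM in B2, 263 in D10, 417 in E8, 128 in F11 and 1.99 in H2, with at most 78.2 CPM in the *Prl*-led wells. *Reep4* was 335, 416, 0, 372 and 0.159 CPM in the same order, and within plate columns 1 to 3 and 7 to 9 its difference had the opposite sign (-2.45). *Flywch2*, *Apol9b*, *Babam1* and *Aagab* were also near 0 in at least 1 *Pomc*-led well, with medians of 178 to 274 CPM and differences of 7.48 to 7.73. The highest *Prl*-led well was above every *Pomc*-led well for *Flywch2* (2027 against 452 CPM), *Apol9b* (590 against 413) and *Babam1* (1192 against 299). For *Aagab* it was not (184 against 815 CPM). The difference of *Babam1* was 3.31 against the matched wells. With *Bcl2l1* (7.89) and *Reep4* (7.73), these 6 genes had larger differences of medians than the genes without overlap.

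The 1 gene with every *Pomc*-led well below every matched well was *Crhbp*, which codes for the protein that binds and holds back CRH (chromosome 13). It was 72.7 CPM in B2, 18.5 in D10, 37.3 in E8, 11.9 in F11 and 152 in H2, and in the 9 matched wells the lowest value was 1953, the median 6930 and the highest 24875 CPM. The highest *Pomc*-led well, H2, was still far below the lowest matched well, H9. The difference of medians was -7.50 against the 9 and -5.57 against the 20 wells, of which H4, with 16.6 CPM, was the 1 well inside the *Pomc*-led range. Without H4, *Crhbp* was the 1 gene with no overlap downward among the remaining 19. The summed level was 79.2 CPM (Poisson interval 76.2 to 82.4) in the *Pomc*-led and 9990 CPM (9963 to 10017) in the matched wells. The low level was not particular to the *Pomc*-led wells: the *Gh*-led wells B12, F4 and H11 had 9.23, 12.7 and 13.4 CPM.

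*Pou1f1*, the gene of Pit-1, was 1.13 CPM in B2, 1.32 in D10, 0 in E8, 1.69 in F11 and 9.63 in H2, against a median of 122 CPM in the 20 *Prl*-led wells. In the matched wells it ran from 0.281 to 393 CPM, with a median of 154 CPM. H9, the lowest of these, lay among the *Pomc*-led wells although its *Prl* led, and 5 of the 20 *Prl*-led wells were below H2. The difference of medians was -5.73 against 20 and -6.06 against 9 wells. Of the 10 genes of lactotropes and somatotropes, 4 passed the filter against 20 wells with *Pou1f1* at least 4-fold lower (8.5% of all genes were), and 5 passed against the matched wells with *Pou1f1*, *Esr1* and *Gal* lower (14.7% of all genes). *Drd2*, the dopamine receptor of lactotropes, had no count in the *Pomc*-led wells and reached 1 CPM in 1 of 20 *Prl*-led wells. *Gal*, which codes for galanin, was 5040 CPM in F11 and 3008 CPM in H2 but 3.04 CPM in E8.

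The other genes with the largest differences downward overlapped between the sides. *Cited1*, a coregulator of transcription, was 0 CPM in B2, 11.2 in D10, 0 in E8, 5.38 in F11 and 0.0796 in H2, against a median of 152 CPM (0 to 16374) in the *Prl*-led wells. *Reln*, which codes for the secreted protein reelin, was at most 1.90 CPM in the *Pomc*-led wells against a median of 43.4 CPM, and 3 of 20 *Prl*-led wells were below that. *Dlk1*, an imprinted gene of the Notch ligand family, was 5.28, 36.6, 2.28, 32.4 and 2.31 CPM in B2, D10, E8, F11 and H2, against 208 CPM (4.96 to 3361).
The remaining 7 (*Eif3d*, *Phf10*, *Ckb*, *Gle1*, *Hsd17b10*, *Stk32a* and *Ociad2*) had *Pomc*-led medians of 0.159 to 3.20 CPM and at least 1 *Pomc*-led well of 73.6 CPM or more. For *Eif3d*, *Phf10*, *Ckb*, *Gle1* and *Ociad2* H2 was the highest *Pomc*-led well, with 109 to 180 CPM, and within plate columns 1 to 3 and 7 to 9 the differences of *Phf10* (1.82) and *Ociad2* (0.73) were upward. *Eif3d*, a subunit of translation initiation factor 3, was 68.9 CPM or more in all 9 matched wells and under 1 CPM in the 4 *Pomc*-led wells other than H2.

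Lists of broader function are given by their counts and medians, beside medians of 0.14 and 0 for all genes. Of the 27 genes of the endoplasmic reticulum, all of which passed the filter, 3 were at least 4-fold higher (*Creb3l2*, *Ddit3* and *Pdia4*) and 2 lower (*Sdf2l1* and *Manf*) against 20 wells (20.7% and 8.5% of all genes), and 1 and 3 against the matched wells (14.4% and 14.7%); the median was 0.32 and -0.21. *Hspa5*, the main chaperone of that compartment, was 223 CPM in B2, 272 in D10, 511 in E8, 239 in F11 and 1070 in H2, against a median of 806 CPM (39.4 to 9627), a difference of -1.56. *Manf*, a secreted protein induced by stress there, was 4.91, 67.0, 79.9, 162 and 368 CPM in the same order against 183 to 1444 CPM in the matched wells, and only H2 was inside their range.

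Of the 13 immediate-early genes, 11 passed the filter against 20 wells, with *Egr1* and *Jund* higher and *Fos*, *Fosl2*, *Jun*, *Btg2* and *Dusp1* lower (20.7% and 8.5% of all genes), and a median of -1.37. Without F11 that median was 0.73. Against the matched wells 10 passed, with *Egr1* and *Atf3* higher and *Fos*, *Btg2* and *Dusp1* lower (14.4% and 14.7% of all genes), and a median of -0.30. *Jund* (0.63) and *Fosl2* (-1.93) were under 4-fold there, and *Jun*, which did not pass that filter, had a difference of 1.11 against -2.73 with 20 wells. *Fos* was 14.1 CPM in B2, 6.27 in D10, 1.52 in E8, 3.27 in F11 and 30.0 in H2, against a median of 86.3 CPM (0 to 1554), and *Egr1* 998, 721, 153, 0.949 and 10.1 CPM against 8.92 CPM (0 to 373). For *Fos* 8 of 20 *Prl*-led wells lay below H2, and for *Egr1* the *Pomc*-led wells split, with B2 and D10 above every *Prl*-led well. For the mitochondrially encoded genes 0 of 12 and for the house-keeping genes 0 of 6 were 4-fold apart, with medians of -0.14 and 0.57, and against the matched wells 0 of 11 and 0 of 6, with medians of -0.36 and 0.17; *Eef1a1* and *Rpl41* among these share reads with pseudogenes.

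**Figure D4:**
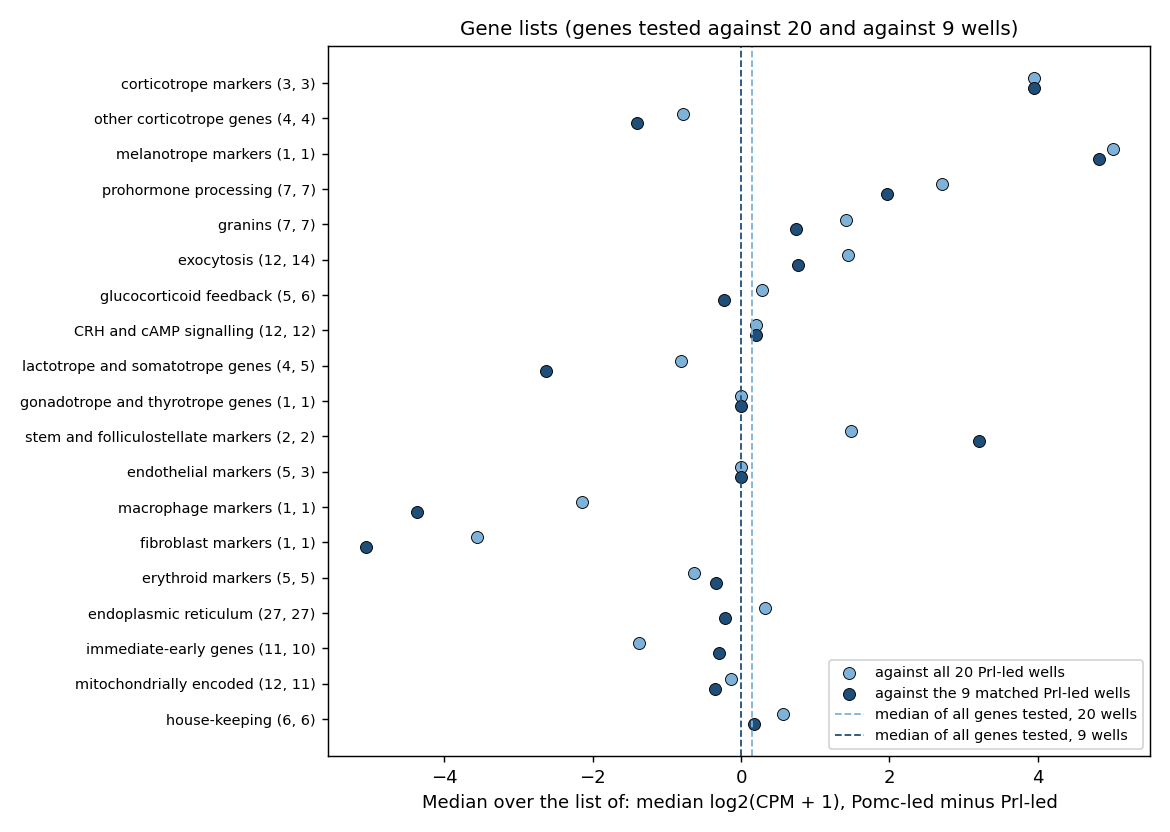
Median over the genes of each list of the difference in median log2(CPM + 1), *Pomc*-led minus *Prl*-led, against all 20 (light) and the 9 matched (dark) *Prl*-led wells; numbers beside a list are its genes past the filter in each comparison, and dashed lines are the medians of all genes. Corticotrope markers (3.95), *Pcsk2* alone for melanotropes (5.02) and prohormone processing (2.71) lie furthest to the right against 20 wells. Prohormone processing shares *Pcsk1* with the corticotrope and *Pcsk2* with the melanotrope list. *Tbx19* and *Crhr1* passed the filter chiefly through the *Pomc*-led wells where they were high. Against the 9 wells the stem and folliculostellate list (3.20, 2 genes) lies further right than prohormone processing (1.97).

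Markers of other cells were read in both sides. The 5 endothelial markers summed to 0 to 44.7 CPM in the *Pomc*-led wells and 0 to 979 CPM in the matched wells. *Kdr*, *Plvap* and *Pecam1* were at no more than 0.317 CPM in any *Pomc*-led well, while *Cdh5* was 35.8 and *Emcn* 8.68 CPM in H2. For macrophages, *Cd68* was 331 CPM in F11 and 39.7 CPM in H2, while *Csf1r* and *Ptprc* had no count in any *Pomc*-led well. Of the 6 fibroblast markers, 5 had no count in any *Pomc*-led well, and *Col1a2* was at most 0.660 CPM against a median of 35.9 CPM in the matched wells. *Sox2* and *S100b*, which mark stem and folliculostellate cells, had no count in any well of either side, and *Vim* was 559 CPM in D10. The gonadotrope receptor *Gnrhr* was 154 CPM in H2 and 0 in 3 of the other 4 *Pomc*-led wells. The part of these transcripts in the differences above was not tested, and doublets were not called.

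The globin reads of F11 are given by gene. *Hba-a1* and *Hbb-bs* were 36905 and 44535 CPM in F11 and at most 19.9 and 22.8 CPM in the other *Pomc*-led wells, and *Alas2*, the enzyme of haem synthesis in red cell precursors, was 198 CPM in F11 and 0 in the other 4. The paired alpha genes and the paired beta genes share reads, so the split within each pair is uncertain. Without F11 the differences of medians from the 20 wells were 3.04 for *Pcsk1*, 3.72 for *Pcsk2*, 5.27 for *Chga* and 5.40 for *Syt1*.

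**Figure D5:**
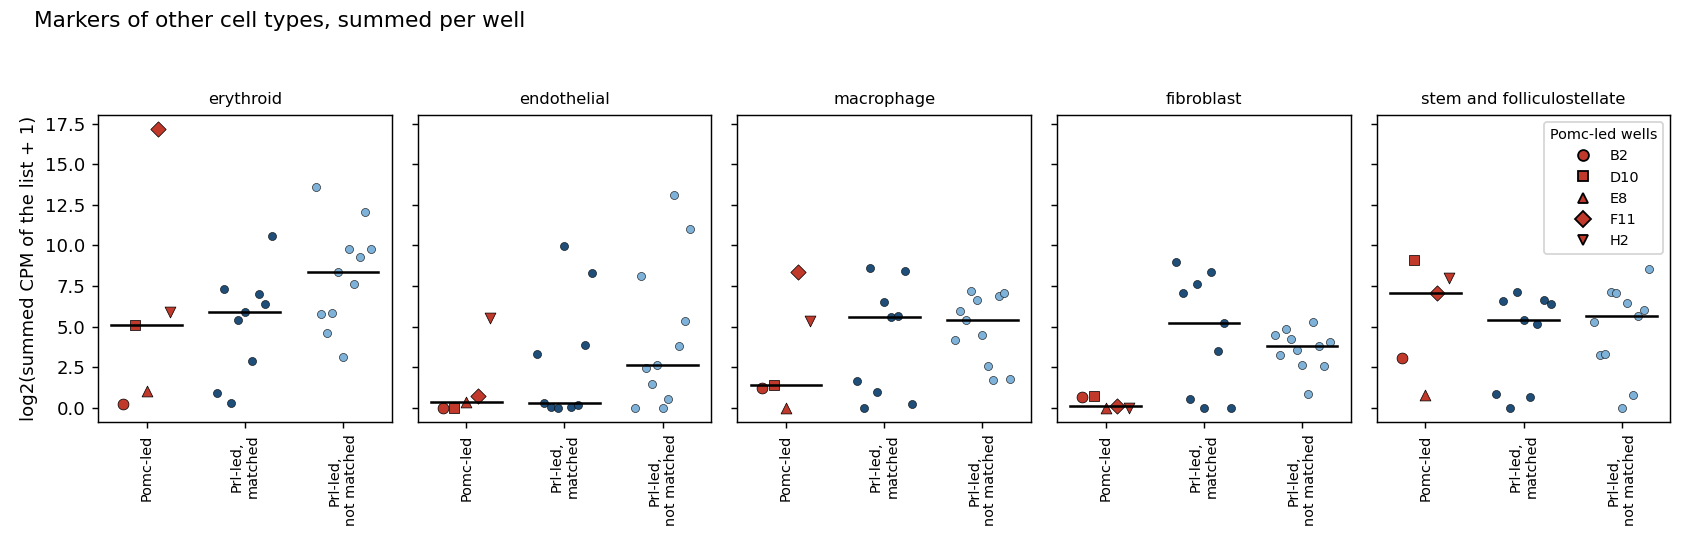
Log2 of the summed CPM (plus 1) of 5 lists of markers of other cells, by well, in the *Pomc*-led wells (symbols name the well) and the matched and other *Prl*-led wells; bars are medians. F11 stands at 146749 CPM for the erythroid list, against at most 58.8 CPM in the other *Pomc*-led wells.

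Of the 17 wells between the sides, some carried *Pomc*-side genes, and the 3 described below were picked after their values were seen. Over all 17, *Tbx19* reached 1 CPM in 6 and *Crhr1* in 2, both with a median of 0. A10 and E7 had the highest *Pomc* shares (49.4% and 33.8% of *Prl*) at gene counts of 127487 and 111195. Their sums of *Tbx19*, *Crhr1* and *Pcsk1* were 15.7 and 8.99 CPM. In D7, where *Prl* was 389712 CPM and *Pomc* 18.2% of it, *Tbx19* was 90.4 CPM, *Pax7* 37.1, *Pcsk2* 343, *Pcsk1* 165 and *Chga* 2700 CPM, while *Crhbp* was 8713 and *Pou1f1* 306 CPM. The melanotrope and corticotrope genes and the genes high in the *Prl*-led wells were thus read in the same well. In G10 (*Pomc* at 13.7% of *Prl*) *Tbx19* was 48.0, *Pcsk2* 226 and *Crhbp* 29088 CPM, above every one of the 25 members. In E1 (19.7%) *Neurod1* was 46.7, *Pcsk1* 237 and *Crhbp* 157 CPM and *Tbx19* had no count. These 3 wells had an ERCC share of 0.276% to 0.375%, under that of the *Pomc*-led wells. High *Pcsk1* also occurred where *Pomc* was low: in the *Gh*-led well F4, with *Pomc* at 33.8 CPM, *Pcsk1* was 2462, *Pcsk2* 919, *Neurod1* 189, *Nr3c1* 105 and *Rab3b* 1681 CPM.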

How the data were processed

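Transcripts of 56 single cells of cultured mouse pituitary were measured by RNA-seq, without molecular identifiers. The authors deposited 1 table of estimated counts for 47069 Ensembl genes and 92 ERCC spike-ins, unscaled, in which 33.5% of the values above 0 were not whole (tolerance 1e-09). The submitters' processing notes name STAR 2.5.1b, featureCounts 1.5.0-p1 and mm10; for these single-cell libraries their settings, the annotation release and the use of strand are not given in the sources used here, so overlapping, antisense and near-identical genes may share reads. Symbols and gene types were matched by identifier in GENCODE M21 (46488 matched), and every column matched 1 well by name.

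From these counts CPM was computed over the gene rows, wells were assigned by the hormone rule, and the medians of log2(CPM + 1) were compared for genes other than *Pomc*, *Prl*, *Gh*, *Tshb*, *Lhb*, *Fshb* and *Cga*, with a mean of the sides' mean CPM of at least 10. A gene high in 1 well of a side can pass this filter, and a difference against a median of 0 depends on the pseudocount. A gene was read where it had at least 1 CPM. Shares carry exact Clopper-Pearson and summed counts exact Poisson 95% intervals. No test between the sides was made, since the labels give 1 sample. The 19 gene lists may all be named; besides these, the 12 genes each way with the largest difference of medians are named, genes without overlap first. *Syt1*, *Rims3*, *Nrbp1*, *Cst6*, *Slc24a2*, *Atp6ap2*, *Gbp6* and *Rtp4* among the genes without overlap against the matched wells, and single wells, were picked after their values were seen. The members and lists were chosen with earlier results of these data known, and the matched wells after seeing depth and spike-in share. Alternatives changed the CPM total, pseudocount, filter, depth, *Pomc* limit, summary and wells, and thinned each well to 100000 counts after rounding. The code was tested on simulated data and run with Python 3.11.15, numpy 2.4.6, scipy 1.17.1, pandas 2.3.3 and matplotlib 3.10.9. Promoters are RefSeq sequences on GRCm38.p6.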

Additional observations from a re-analysis of the deposited data

Results flagged for a closer look

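For the 107 genes named above, the gene counts and the spike-in share, the well furthest from its neighbours was examined within the 5 *Pomc*-led wells and within the 9 matched *Prl*-led wells, with genes on the log2(CPM + 1) scale. A well is named here where its gap to the next well, as a share of the whole range, was above Dixon's 95% limit for that number of wells (0.71 for 5). Of 218 sets of values, 23 passed in the *Pomc*-led and 23 in the matched wells; for normally distributed values chance passes about 1 in 20 sets, and a gene read in 1 well of a side passes by its zeros alone. The genes were chosen with their values known.

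Among the *Pomc*-led wells, H2 was the highest for *Tshb* (49.8 CPM; gap 0.956 of the range), *Gnrhr* (154 CPM; 0.966), *Sgk1* (21.5 CPM; 0.897), *Eif3d* (0.882) and, at 0.239 CPM, *Qpct* (1), and the lowest for *Bcl2l1* (0.762). E8 was the highest for *Pax7*, where the gap was the whole range (1), and for *Rab3d* (0.76), and the lowest for *Nr3c1* (0.831), *Cpe* (0.817) and *Gprasp1* (0.732). F11 was the highest for the erythroid genes *Alas2* (1) and *Hba-a1* (0.711), for *Dusp1* (0.936) and *Stk32a* (0.839), and, at no more than 0.317 CPM, for *Kdr* (1) and *Plvap* (0.721), and the lowest for *Pdia4* (0.843). B2 was the highest for *Cplx2* (0.899), *Fkbp5* (0.78), *Prkar1a* (0.753) and, at 0.944 CPM, *Pcsk7* (1), and D10 for *Btg2* (0.724). H2 was also the deepest well, with 12563266 gene counts, and E8 the shallowest of the 5, with 1314330.

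Among the matched wells, H12 was the highest for *Tbx19* (71.8 CPM; gap 0.943 of the range), *Nr3c1* (15.5 CPM; 0.932) and *Nr3c2* (1). G7 was the highest for *Lhb* (1490 CPM; 0.847), *Cga* (0.602), *Neurod1* (0.591), *Hspa5* (0.556) and, at 0.223 CPM, *Gnrhr* (1). F6 was the highest for the endothelial genes *Kdr* (160 CPM; 0.916) and *Plvap* (0.526) and, at 0.240 CPM, for *Alas2* (1). H9 was the highest for *Crhr1* (3.19 CPM; 1) and the lowest for *Phf10* (0.683), *Pdia4* (0.539) and *Reln* (0.506). C8 was the highest for *Gbp6* (0.695) and the lowest for *Cited1* (0.582) and *Gle1* (0.528). G1 was the 1 matched well with *Drd2* (16.6 CPM; 1), B11 was the highest for *Slc24a2* (0.423 CPM; 1) and the lowest for *Prl* (0.563), and A7 was the lowest for *Gal* (0.531) and the 1 well with *Pcsk5* (0.137 CPM; 1).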

How the results depend on the processing

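Genes at least 4-fold higher and lower, and genes without overlap, numbered 1585, 650, 6 and 0 with 5 *Pomc*-led and 20 *Prl*-led wells. A pseudocount of 0.1 gave 1110 lower genes, and 10 gave 805 higher and 84 lower. A mean CPM of 100 gave 312 higher, 61 lower and 2 without overlap. With a minimum of 500000 counts, or without wells over 30% spike-in, 13 *Prl*-led wells remained and 11 genes did not overlap. A *Pomc* limit of 0.5% left 8 *Prl*-led wells, with 1015 lower genes and 34 higher without overlap; a limit of 10% gave 31 wells and 2 such genes, and no limit 37 wells and 0. Means in place of medians gave 245 lower genes. Within plate columns 1 to 3 and 7 to 9 (3 against 11 wells) there were 2540 higher and 357 lower genes, with 136 and 4 without overlap, and within columns 4 to 6 and 10 to 12 (2 against 9 wells) 1278 lower, with 384 and 116; fewer wells overlap less. Leaving out each *Pomc*-led well in turn gave 12 to 22 genes without overlap upward and 0 to 1 downward. The 4 other alternatives were chosen after seeing the data: the 9 matched wells gave 1135 lower genes, with 17 and 1 without overlap; the same with the hormone genes out of the total 1443, with 10 and 6; the same without H2 1206, with 31 and 17; and all wells but H4 gave 1 downward. Among differences of at least 4-fold, the sign turned for *Reep4* (7.73 to -2.45), *Phf10* (-5.19 to 1.82) and *Ociad2* (-5.00 to 0.73) within columns 1 to 3 and 7 to 9, and for the macrophage list (-2.14 to 0.53) with summed counts; the cause was not tested. Smaller list medians turned under more of the 26 alternatives: glucocorticoid feedback (0.28) in 11, mitochondrially encoded (-0.14) in 8, endoplasmic reticulum (0.32) and further corticotrope genes (-0.78) in 6 each, immediate-early (-1.37) in 4, erythroid (-0.63) in 3, and lactotrope and somatotrope (-0.81) and house-keeping (0.57) in 1 each. Leaving out 1 well turned the immediate-early list to 0.73 (F11), the further corticotrope genes to 1.20 (D10), 0.32 (E8) and 0.04 (F11), the endoplasmic reticulum to -0.28 (H2), glucocorticoid feedback to -0.15 (D10 or H2) and the mitochondrial list to 0.40 (B2), 0.18 (D10) and 0.43 (E8). Thinning, no minimum depth, a minimum mean of 1 CPM, summed counts, the hormone genes out of the total and leaving out C11 moved no count by more than 1.5 times. No paired analysis was possible because the wells are single cells without pairs. Depth limits low genes, since 3 counts are 0.239 to 2.28 CPM in the *Pomc*-led and up to 15.0 CPM in the *Prl*-led wells.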
